A study of Mus musculus with 23 samples.

Results

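The cytochrome P450 genes of families 1, 2 and 3 were followed in mouse liver. Members were the genes annotated as protein coding whose symbol starts with Cyp1, Cyp2 or Cyp3 followed by a subfamily letter and a number, that were listed for both sexes and that had a mean of at least 10 raw counts in at least 1 sex. This rule kept 47 of 22852 genes listed for both sexes, of which 15800 were protein coding. The rule itself uses no measured difference between groups, but it can admit a gene through the 1 sex in which it is higher. It was set with earlier results of these data known. Of the other P450 entries with such a symbol, 13 were annotated as other than protein coding, 3 were listed for 1 sex only (Cyp2b19, Cyp2d34 and Cyp3a41b) and 3 were below the count minimum (Cyp2j8, Cyp2t4 and Cyp3a57). Just inside the minimum stood Cyp2s1, with means of 4.46 counts in males and 10.2 in females. Just outside it stood Cyp2t4, with 6.46 and 7.08.

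The series measured polyadenylated RNA by sequencing in livers of male and female mice that either lacked Cpt1a in the liver, labelled B100-LKO, or were the controls of the same study, labelled B100-Control. CPT1A is the enzyme that admits long-chain fatty acids to mitochondria for oxidation. There were 5 control males (replicates 1, 2, 3, 4 and 6), 6 LKO males, 6 control females and 6 LKO females. All groups carried the B100 designation, had been on a diet labelled WD for 16 weeks and were killed in the fed state, so no fasted liver is set beside them. The labels spell out neither B100 nor WD. The promoter that drove the deletion, the age of the mice and whether animals of a group were littermates are not given in the sources used here.

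P450 enzymes are haem proteins of the endoplasmic reticulum that insert oxygen into small lipophilic molecules, using electrons passed on by the reductase POR. In hepatocytes the members of families 1 to 3 oxidise drugs, pollutants, steroids, retinoids and fatty acids. Family 1 genes are classical targets of the aryl hydrocarbon receptor, Cyp2b genes of the receptor CAR and Cyp3a genes of the receptor PXR, and in rodents many Cyp2 and Cyp3a genes differ between the sexes under the control of growth hormone.

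Library totals lay between 14224665 and 19626662 assigned counts, the lowest being control male 4. The targeted gene was measured first. Cpt1a stood at 362 ± 51.0 CPM (counts of a gene relative to the library total, scaled within each sex) in control males (SD, n = 5) and 63.9 ± 20.3 in LKO males (n = 6), and at 383 ± 57.8 in control females and 75.0 ± 8.54 in LKO females (n = 6 each), with no overlap between genotypes in either sex. Cpt1a fell by 2.50 (SE 0.19) on the log2 scale in males and by 2.35 (SE 0.12) in females (edgeR quasi-likelihood test, Benjamini-Hochberg adjusted over all genes tested, adjusted p = 9.97e-05 and 3.69e-08). Hepatocyte markers were abundant throughout: 6 of the 7 listed were in the tables, and none of the 6 was at 0 in any library. Among the P450 genes, control male 4 was the highest of its group for 22 of 38 members and control male 3 the lowest for 20 of 38. LKO female 6 was the lowest of its group for 20 of 41, and no other library was highest or lowest for more than 17 members.

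The 47 members fell into 14 subfamilies, most of them in gene clusters. The largest were Cyp2c with 13 genes on chromosome 19, Cyp2d with 8 on chromosome 15 and Cyp3a with 7 on chromosome 5. Chromosome 7 held 4 Cyp2a and 3 Cyp2b genes and Cyp2e1, Cyp2f2, Cyp2g1, Cyp2r1 and Cyp2s1, chromosome 4 held 3 Cyp2j genes, chromosome 9 held Cyp1a1 and Cyp1a2, chromosome 17 held Cyp1b1 and chromosome 3 held Cyp2u1. Together the members took 1.70% ± 0.193 of all counts in control males (SD, n = 5), 1.77% ± 0.216 in LKO males, 2.23% ± 0.197 in control females and 2.20% ± 0.262 in LKO females (n = 6 each). The share differed between genotypes by less than the spread between livers in both sexes.

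Per length of gene as deposited, the pool was dominated by 1 gene. That length can exceed the coding transcript: for Cyp3a11 it was 5093 bases, and the longest coding transcript has 2344. The order of members therefore depends in part on the annotated length. Cyp2e1, which oxidises ethanol, acetone and fatty acids, averaged 3328 FPKM (fragments relative to gene length and library size, as deposited) in control males and 3966 in control females, or 43.4% and 38.1% of the summed FPKM of all members. Next in order of the mean over all 23 livers came Cyp2d26 at 692 FPKM, Cyp2d10 at 530, Cyp2a5 at 459, Cyp2a4 at 392, Cyp2f2 at 329, Cyp2d9 at 326 and Cyp3a11 at 250. Genes known to be inducible lay far apart on this scale. Cyp1a2 averaged 143 FPKM, rank 15 of 47, while Cyp2b10, the phenobarbital-inducible enzyme, averaged 3.39 at rank 34. Cyp1a1, the dioxin-inducible enzyme, averaged 0.238 FPKM and Cyp1b1 averaged 0.128.

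The 3 members of highest mean FPKM showed no called difference between genotypes. The next, Cyp2a5, was not called by edgeR in either sex but was called by DESeq2 in males, as given below. Cyp2e1 stood at 5767, 7235, 5302, 8513 and 9640 CPM in control males 1, 2, 3, 4 and 6 and had a lowest, median and highest value of 4343, 6204 and 9424 CPM in LKO males. In females the same 3 values were 5927, 8910 and 10152 CPM in controls and 7103, 7898 and 11194 CPM in LKO livers. The groups overlapped in both sexes, and the fitted log2 change was -0.15 (SE 0.20) in males and 0.006 (SE 0.15) in females. Cyp2d26 gave -0.27 (SE 0.12, adjusted p = 0.386) in males and -0.05 (SE 0.09, adjusted p = 0.868) in females, and Cyp2d10 gave -0.11 (SE 0.13) and -0.20 (SE 0.13, adjusted p = 0.511), all by edgeR. Neither of these hepatic Cyp2d enzymes passed the threshold.

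In female livers the loss of Cpt1a went with higher Cyp3a59 and lower Cyp1a2, and no other member passed adjusted p under 0.05 (edgeR). That is 2 of the 43 members that passed the filter on low counts, 1 in each direction, where 1.42% of all 13684 genes tested were called (0.928% higher and 0.490% lower). A further view without adjustment counted 20 of 43 members at p under 0.05, 3 higher and 17 lower, against 15.6% of all genes tested. Of the 43, 35 had a negative fitted value and the median was -0.29 on the log2 scale, while the median over all genes tested was 0.005. This lean was a description of the members that passed the filter, and no test was made of it. Without LKO female 6 it was 34 of 44 with a median of -0.21.

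The hepatocyte marker lists leaned the same way in females. The summed CPM of the 6 hepatocyte markers had a lowest, median and highest value of 75949, 80115 and 89482 in control females and 51567, 70702 and 81664 in LKO females, with a median log2 value of -0.25, and none of the 6 passed the test. In males the same sum was 52566, 62540 and 74696 in controls and 50412, 52935 and 67792 in LKO livers, with a median log2 value of -0.25 also, 3 of 6 under an unadjusted p of 0.05 and none called, where the P450 median was 0.01. The 12 periportal hepatocyte markers had a median log2 value of -0.29 in females and -0.01 in males. In females 7 of them were under an unadjusted p of 0.05, of which 6 were lower, and the 1 called, Hsd17b13, rose (log2 0.46, adjusted p = 0.0384, edgeR). Their summed CPM had a median of 12116 in control females and 10478 in LKO females, with overlap. The sum of 6 cholangiocyte markers went the other way, from 39.9, 44.1 and 49.8 in controls to 51.3, 63.8 and 86.5 in LKO females without overlap. Of 5 tested, 1 was called, Spp1, which rose (log2 0.66, adjusted p = 0.0135, edgeR). The median log2 value of these markers in females was 0.38, with 2 of 5 tested under an unadjusted p of 0.05. A sum of CPM is weighted to its most abundant genes, and the part of Spp1 in it was not tested. In males this sum overlapped, at 33.7, 76.1 and 136.8 in controls and 36.4, 84.6 and 164.3 in LKO livers. Their median log2 value in males was -0.26, with 2 of 5 tested under an unadjusted p of 0.05 and none called (edgeR). No macrophage, lymphocyte, endothelial, stellate or erythroid marker was called in either sex. Of the 6 cholangiocyte markers, Cftr was at 0 in at least 1 library of every group. The part of these marker lists in the P450 values was not tested. In bulk liver RNA, fewer hepatocytes and less RNA per hepatocyte cannot be told apart.

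**Figure D1:**
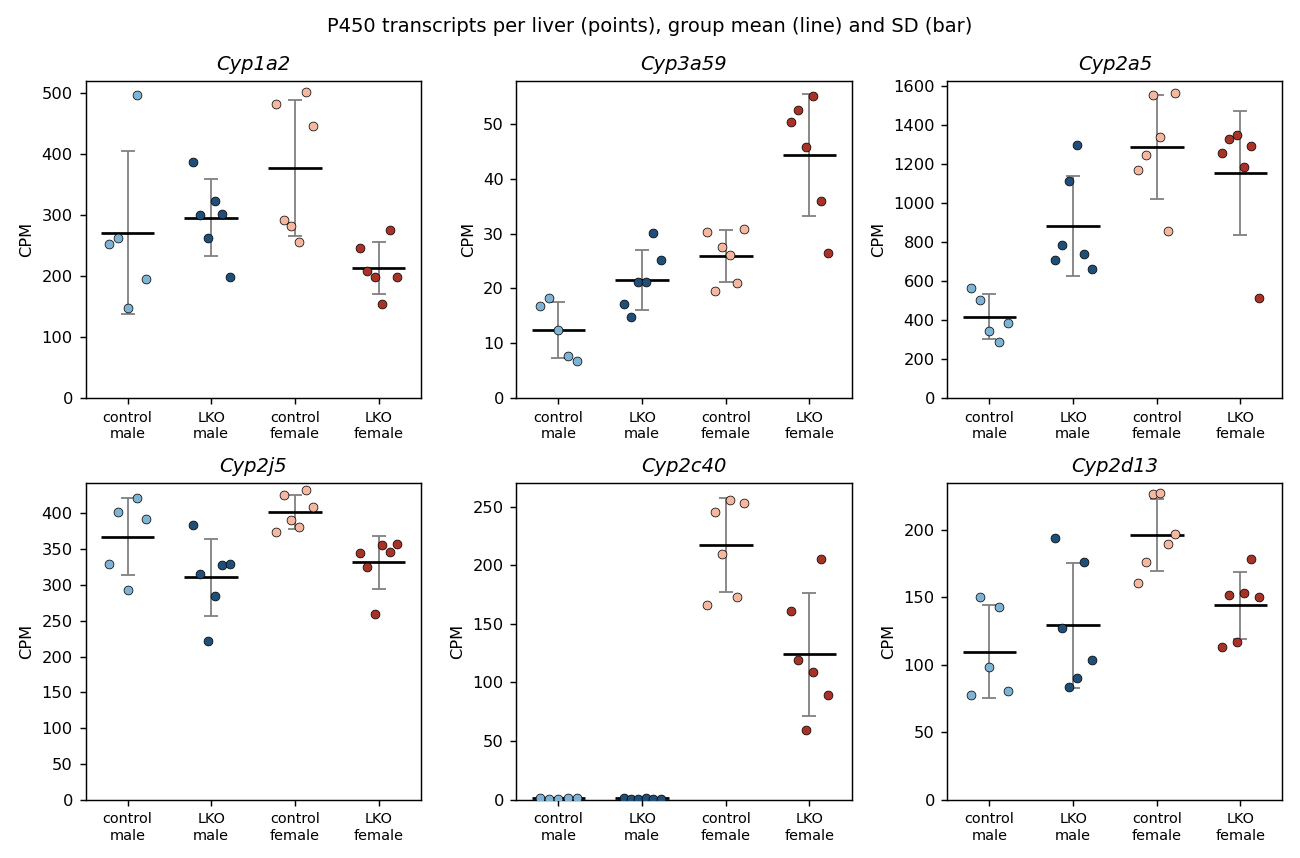
CPM of 6 P450 genes in each of the 23 livers (points), with the group mean (line) and SD (bar); each vertical axis starts at 0. Cyp1a2 and Cyp3a59 are the members called in females, Cyp2a5 separates the genotypes in males alone, and Cyp2j5 separates them in females alone; Cyp2c40 is near 0 in all males.

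Cyp1a2, the main hepatic enzyme of caffeine and arylamine oxidation and a pericentral gene, was the called member that fell. Control females stood at 256, 282, 291, 445, 482 and 501 CPM and LKO females at 153, 198, 199, 208, 246 and 275 CPM. The ranges overlapped, with the highest LKO liver above the lowest control. Cyp1a2 fell by 0.82 on the log2 scale (SE 0.18, adjusted p = 0.0420, edgeR), a fold of 0.566 with a 95% interval from 0.440 to 0.728. In males the controls stood at 253, 263, 148, 495 and 195 CPM in replicates 1, 2, 3, 4 and 6, LKO males had a lowest, median and highest value of 197, 300.5 and 387, and the fitted log2 change was 0.12 (SE 0.26, adjusted p = 0.893, edgeR). The difference between the sexes in the genotype effect was -0.94 (SE 0.34) and did not pass the threshold (adjusted p = 0.275, edgeR).

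Its relative Cyp1a1, which shared 2.06% of Cyp1a2's 100-base transcript windows, was too low to be tested in females, with 7 to 15 counts in controls and 1 to 14 in LKO livers. Of 10 other pericentral markers 0 were called in females by edgeR, 1 was under an unadjusted p of 0.05, and their median log2 change was -0.08. The 250 bases upstream of the Cyp1a2 start site are shown because the gene is the called member that fell (RefSeq, GRCm38.p6, chr9:57683656-57683905, minus strand, printed 5′ to 3′ along the gene). Capitals mark a TATA box (TATAAA), whose first base lies at -29 from the start site. The core of the xenobiotic response element bound by the aryl hydrocarbon receptor, GCGTG on either strand, has no match in this window, while 28.2% of all 32851 RefSeq promoters searched hold one over the same length.
Cyp1a2: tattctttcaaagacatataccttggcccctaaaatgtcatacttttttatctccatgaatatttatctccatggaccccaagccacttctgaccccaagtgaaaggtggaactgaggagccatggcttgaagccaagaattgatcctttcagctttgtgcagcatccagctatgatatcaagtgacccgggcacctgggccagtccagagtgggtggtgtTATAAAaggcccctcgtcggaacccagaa

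Cyp3a59, the next member along chromosome 5 from Cyp3a25, was the called member that rose. Control females stood at 19.5, 21.03, 26.1, 27.6, 30.3 and 30.8 CPM and LKO females at 26.4, 36.0, 45.9, 50.4, 52.5 and 55.1 CPM. Of the LKO livers 5 of 6 lay above every control, and the exception was LKO female 6. Cyp3a59 rose by 0.78 on the log2 scale (SE 0.17, adjusted p = 0.0380, edgeR), a fold of 1.71 with a 95% interval from 1.36 to 2.15. In males the fitted change was of like size, 0.80 (SE 0.26), but did not pass the threshold (adjusted p = 0.279, edgeR). Control males stood at 16.9, 18.2, 12.4, 7.69 and 6.84 CPM in replicates 1, 2, 3, 4 and 6, and LKO males had a lowest, median and highest value of 14.8, 21.2 and 30.1 CPM, so the groups overlapped. The genotype effect differed between the sexes by -0.02 (SE 0.31, adjusted p = 0.984, edgeR).

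Both female calls were close to the threshold. Cyp1a2 was no longer called without control female 1, 5 or 6 or without LKO female 2, 3, 4 or 6, with adjusted p from 0.0245 to 0.106 over the 12 fits that each leave out 1 liver. Cyp3a59 was no longer called without control female 2 or 5 or LKO female 1, 2, 3 or 4, and with all 23 livers in 1 fit neither was called, with adjusted p = 0.109 for Cyp1a2 and 0.0959 for Cyp3a59 (edgeR). In every one of these fits the direction and a log2 size of at least 0.70 stayed in place. DESeq2 called 7 members of 43 tested, 1 higher and 6 lower, where it called 4.09% of all genes. They were Cyp3a59, Cyp1a2, Cyp2g1, Cyp2d13, Cyp2c40, Cyp2j5 and Cyp3a16, and the authors' deposited table has the same 7 members under an adjusted p of 0.05.

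The promoter of Cyp3a59 is shown because its transcript rose, and because it holds a pair of nuclear receptor motifs (RefSeq, GRCm38.p6, chr5:146079008-146079257, plus strand). Capitals mark AGGTCA, the core read by PXR, CAR and other nuclear receptors, at -177, and its reverse complement TGACCT, whose first printed base is at -156. AGGTCA on either strand was present in 28.6% of the 42 member promoters listed and in 14.02% of all 32851. The 42 windows come from 40 members and include near-copies, so they are not independent cases. The window was 95.6% identical to that of Cyp3a25, whose fitted log2 change was 0.24 (SE 0.15, adjusted p = 0.496) in females and 0.35 (SE 0.17, adjusted p = 0.403) in males by edgeR. The transcripts share 5.61% of Cyp3a59's 100-base windows and 24.7% of its 50-base windows.
Cyp3a59: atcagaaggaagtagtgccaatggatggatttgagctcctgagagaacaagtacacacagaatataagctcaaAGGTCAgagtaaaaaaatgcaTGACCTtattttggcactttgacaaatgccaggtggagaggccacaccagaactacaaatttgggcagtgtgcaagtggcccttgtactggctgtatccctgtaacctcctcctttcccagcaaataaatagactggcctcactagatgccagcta

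Below the threshold, the 3 members with the next lowest p in females had lower values in LKO livers. Cyp2g1, an enzyme best known from the olfactory mucosa, gave a log2 value of -1.13 (SE 0.30, adjusted p = 0.0822) with controls from 3.65 to 11.6 CPM around a median of 4.73 and LKO livers from 1.59 to 4.33 around a median of 2.62. Cyp2d13 gave -0.44 (SE 0.12, adjusted p = 0.0853), with controls from 161 to 227 CPM around a median of 193 and LKO livers from 113 to 179 around a median of 151. Cyp2c40, an arachidonate-oxidising enzyme, gave -0.81 (SE 0.24, adjusted p = 0.106), with controls from 166 to 255 CPM around a median of 227 and LKO livers from 59.1 to 206 around a median of 114. These 3 genes overlapped between genotypes and were not called by edgeR.

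Cyp2j5, an epoxygenase of arachidonic acid, was the only member tested in females whose genotypes did not overlap. Controls stood at 375, 382, 391, 409, 426 and 432 CPM and LKO females at 259, 326, 345, 347, 356 and 357 CPM. Its log2 value was -0.28 (SE 0.09, adjusted p = 0.125, edgeR), so the separation came with a small change. Of all genes tested in females, 1.59% had groups without overlap, 1.05% with the LKO livers higher and 0.548% with them lower. In males Cyp2j5 overlapped, at -0.24 (SE 0.14, adjusted p = 0.489, edgeR).

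By subfamily, the fitted values in females were negative for 13 of 13 Cyp2c genes (from -1.33 to -0.08), 7 of 7 tested Cyp2d genes (from -1.55 to -0.05) and 3 of 3 Cyp2j genes (from -0.28 to -0.18). None of these 23 was called by edgeR. Cyp2a and Cyp2b genes were mixed, with 1 of 4 and 1 of 3 positive. In the Cyp3a cluster 4 of 7 were positive, and all 4 are genes found in both sexes. Besides Cyp3a59 and Cyp3a25 these were Cyp3a11, the main hepatic PXR target, at 0.35 (SE 0.13, adjusted p = 0.211), and Cyp3a13 at 0.38 (SE 0.12, adjusted p = 0.142).

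The 3 negative Cyp3a genes were Cyp3a16, Cyp3a41a and Cyp3a44, which in these livers were nearly confined to females. The values of Cyp3a16 and Cyp3a41a are given because of their spread, a choice made after they were seen. Cyp3a16 had 1, 423, 394, 10, 1 and 120 raw counts in control females 1 to 6 and 23, 16, 10, 24, 9 and 9 in LKO females 1 to 6. Control livers 1 and 5 were thus the lowest of all 12, and controls 2, 3 and 6 the highest. Cyp3a41a had 1, 315, 410, 19, 2 and 416 counts in the controls and 3, 67, 9, 50, 47 and 61 in the LKO livers. The same 3 controls were high and the same 3 low.

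Cyp3a44 had 40, 158, 114, 69, 42 and 515 counts in control females 1 to 6 and 13, 76, 17, 49, 79 and 75 in LKO females 1 to 6. No LKO liver reached the upper controls in any of the 3 genes, but lower controls overlapped with LKO livers in each. The log2 values were -3.52 (SE 1.02, adjusted p = 0.106), -2.50 (SE 0.95, adjusted p = 0.218) and -1.80 (SE 0.61, adjusted p = 0.160) in the same order by edgeR, and for Cyp3a44 the value was -0.88 without control female 6. Among males, Cyp3a16 had at most 9 counts in a liver and Cyp3a41a and Cyp3a44 at most 2.

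**Figure D2:**
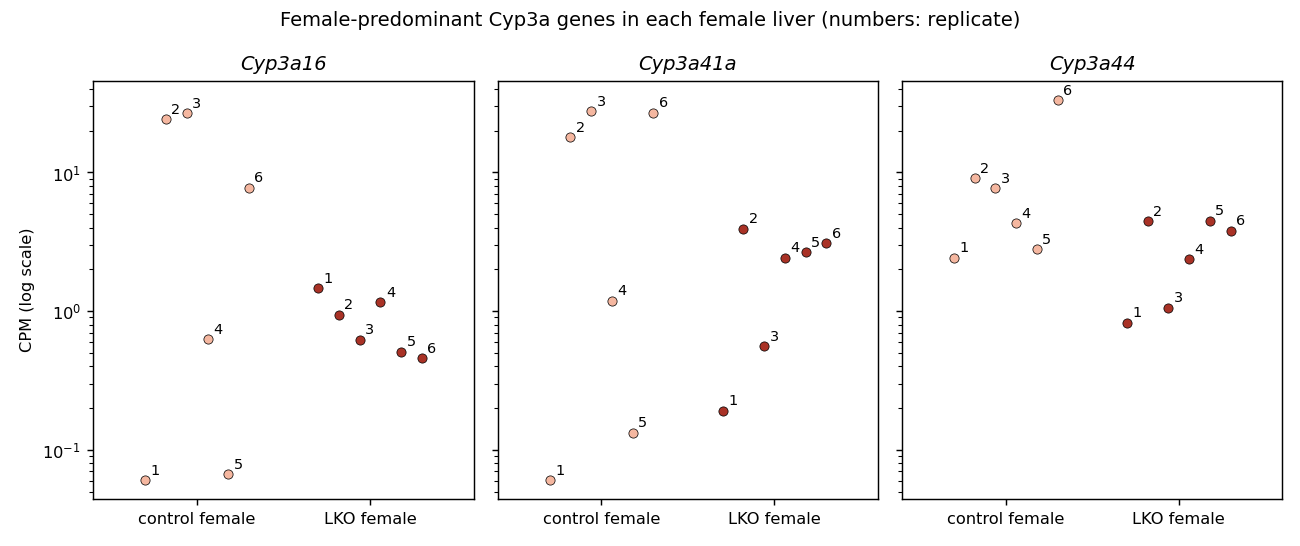
CPM of Cyp3a16, Cyp3a41a and Cyp3a44 in each female liver on a log axis, with the replicate number beside each point. Control females 2, 3 and 6 are the highest for each gene, and control females 1, 4 and 5 lie within or below the LKO livers for Cyp3a16 and Cyp3a41a.

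The upstream sequences of these 3 genes are shown because their transcripts varied together between control females. They lie on chromosome 5 on the minus strand (RefSeq, GRCm38.p6): Cyp3a16 at chr5:145469724-145469973, Cyp3a41a at chr5:145720137-145720386 and Cyp3a44 at chr5:145805875-145806124. Identity between them was 95.9% for Cyp3a16 and Cyp3a44, 94.4% for Cyp3a41a and Cyp3a44 and 93.9% for Cyp3a16 and Cyp3a41a. Capitals mark CAAAGTC, part of the element read by HNF4A (first base at -99 in Cyp3a16 and -95 in Cyp3a41a), TATAAA (at -126, -122 and -122) and AGGTCA (at -150 in Cyp3a44). TATAAA was found in 52.4% of member promoters and 12.4% of all, and CAAAGTC in 38.1% and 3.84%, on either strand. Near-copies among the member windows were each counted in these shares. The STAT5-type motif TTCNNNGAA, bound by the growth hormone transducer STAT5, had a match in 0 of 42 member windows and 7.02% of all.
Cyp3a16: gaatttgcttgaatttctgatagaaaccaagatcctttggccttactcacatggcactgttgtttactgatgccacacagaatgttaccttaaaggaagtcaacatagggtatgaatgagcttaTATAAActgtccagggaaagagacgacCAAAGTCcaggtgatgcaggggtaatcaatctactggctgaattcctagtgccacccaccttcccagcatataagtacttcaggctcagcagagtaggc
Cyp3a41a: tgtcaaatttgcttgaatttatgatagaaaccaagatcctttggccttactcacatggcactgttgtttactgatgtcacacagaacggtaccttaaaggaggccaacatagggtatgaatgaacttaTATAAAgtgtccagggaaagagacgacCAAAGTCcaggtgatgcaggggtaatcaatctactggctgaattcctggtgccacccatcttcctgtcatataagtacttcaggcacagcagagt
Cyp3a44: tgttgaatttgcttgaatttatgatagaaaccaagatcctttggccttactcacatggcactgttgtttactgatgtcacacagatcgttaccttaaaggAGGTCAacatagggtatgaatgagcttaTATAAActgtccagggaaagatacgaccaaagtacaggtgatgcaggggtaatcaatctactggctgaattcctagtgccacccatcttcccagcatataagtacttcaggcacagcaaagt

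Cyp3a41a shared 90.8% of its 100-base windows with other P450 transcripts, most with Cyp3a41b, so its counts and those of Cyp3a41b cannot be assigned to 1 copy. Among the other members, sharing was 44.1% for Cyp2c40 and 36.3% for Cyp2c69, each mostly with the other, 23.7% for Cyp2c67, 19.8% for Cyp2c68, 14.8% for Cyp2d10, 14.4% for Cyp2a5, 12.2% for Cyp2d11 and 11.2% for Cyp2a4. These 9 were the members above 10% of the 46 matched to a GENCODE M21 transcript. Over 50-base windows more was shared, with 40.8% for Cyp2a5, 38.0% for Cyp2a4, 28.0% for Cyp3a59, 26.8% for Cyp3a25 and 4.97% for Cyp1a2. Such a percentage is not the size of the error in a count, which also depends on the level of the relative and was not tested.

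In male livers no member passed adjusted p under 0.05 with edgeR, out of 40 that passed the filter. Among all 13805 genes tested in males 0.00724% were called, which is 1 gene. At an unadjusted p under 0.05 there were 4 members, 3 higher and 1 lower, against 12.5% of all genes, and DESeq2 called 1 of the 28 members for which it gave an adjusted p, Cyp2a5, where it called 1.67% of genes. Of the 40, 22 had a positive and 18 a negative fitted value, with a median of 0.01, as over all genes tested. The authors' deposited table also has Cyp2a5 as its 1 member under an adjusted p of 0.05 in males.

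Cyp2a5, the coumarin 7-hydroxylase of mouse liver, had the lowest p of the members in males and was the only one whose genotypes did not overlap there. Control males stood at 564, 503, 343, 286 and 385 CPM in replicates 1, 2, 3, 4 and 6, and LKO males at 663, 708, 737, 783, 1110 and 1294 CPM in rising order. The log2 value was 1.08 (SE 0.22, adjusted p = 0.175, edgeR), a fold of 2.12 with a 95% interval from 1.58 to 2.84, and adjusted p = 0.000441 by DESeq2. Of all genes tested in males, 1.77% had groups without overlap, 0.674% with the LKO livers higher and 1.10% with them lower. In females the lowest, median and highest values were 854, 1289 and 1560 CPM in controls and 513, 1272 and 1346 CPM in LKO livers, at -0.16 (SE 0.20, adjusted p = 0.773, edgeR). By group mean the LKO males, at 882 CPM, lay between the control males, at 416, and the control females, at 1285. These CPM were scaled within each sex. Mean FPKM gave the same order, with 197 in control males, 417 in LKO males and 622 in control females. Other members that differed between the control sexes moved both ways in males. Among genes higher in females, mean CPM in LKO against control males was 51.9 against 15.6 for Cyp2a4 and 8.59 against 17.2 for Cyp2b9. Cyp2d9, lower in females, had 705 against 578 FPKM. None of these genotype differences was called by edgeR.

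Cyp2a4, a close relative of Cyp2a5 and a testosterone 15-alpha-hydroxylase, varied far more between male livers. Control males had 31.2, 25.6, 9.41, 0.162 and 11.5 CPM in replicates 1, 2, 3, 4 and 6 and LKO males 13.03, 28.9, 114, 92.5, 19.1 and 43.3 CPM in replicates 1 to 6. The ranges overlapped, at a log2 value of 1.73 (SE 0.72, adjusted p = 0.360, edgeR). LKO males 3 and 4 were the highest of the group for both Cyp2a4 and Cyp2a5. Cyp2a4 transcripts hold 9.56% of Cyp2a5's 100-base windows and 31.0% of its 50-base windows. The effect of such sharing on the counts was not tested.

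The genotype effect on Cyp2a5 differed between the sexes by -1.24 on the log2 scale (females minus males, SE 0.31), with adjusted p = 0.155 by edgeR and 0.0256 by DESeq2. No member passed this comparison with edgeR, out of 47 tested, and 0% of all 14503 genes did. At an unadjusted p under 0.05 there were 5 members against 12.9% of all genes, and DESeq2 called 1 member, where it called 0.851% of genes. The other 4 were Cyp1a2, Cyp2d13 at -0.68 (SE 0.29, adjusted p = 0.346), Cyp2d11 at -2.23 (SE 0.98, adjusted p = 0.352) and Cyp3a13 at 0.42 (SE 0.19, adjusted p = 0.364). Since each sex is 1 deposited table, sex and any difference in the making of the tables cannot be told apart.

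The Cyp2a4 and Cyp2a5 promoters are shown as a pair whose windows were 98.4% identical (RefSeq, GRCm38.p6, plus strand, chr7:26306942-26307191 for Cyp2a4 and chr7:26835089-26835338 for Cyp2a5). Both transcripts were higher in control females than in control males, by a larger factor for Cyp2a4. Capitals mark, in order, the C/EBP-type motif TTGCNNAA (at -70 in Cyp2a4 and -71 in Cyp2a5), CAAAGTC (at -55 and -56) and TATAAA (at -28 and -29). The C/EBP-type motif was found in 26.2% of member windows and 9.56% of all.
Cyp2a4: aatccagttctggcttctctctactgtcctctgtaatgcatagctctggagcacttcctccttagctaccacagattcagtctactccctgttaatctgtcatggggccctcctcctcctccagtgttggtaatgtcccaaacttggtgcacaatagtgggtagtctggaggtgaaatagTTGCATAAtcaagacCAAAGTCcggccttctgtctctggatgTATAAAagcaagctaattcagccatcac
Cyp2a5: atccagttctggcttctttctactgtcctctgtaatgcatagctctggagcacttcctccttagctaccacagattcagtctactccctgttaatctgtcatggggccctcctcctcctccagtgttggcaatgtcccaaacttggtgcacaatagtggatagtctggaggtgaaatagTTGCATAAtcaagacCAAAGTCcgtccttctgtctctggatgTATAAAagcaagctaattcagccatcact

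**Figure D3:**
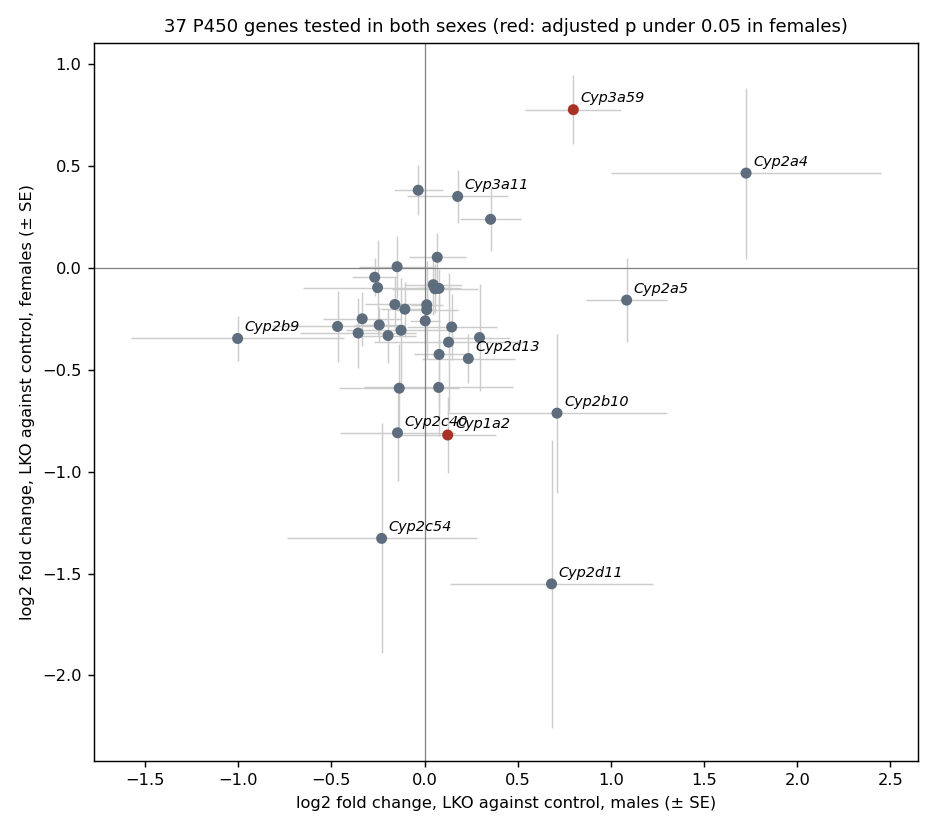
Log2 fold change of LKO against control in males (horizontal axis) and females (vertical axis) for the 37 P450 genes tested in both sexes, with SE bars; red marks the 2 genes called in females. Cyp3a59 lies at 0.80 and 0.78, Cyp2a5 at 1.08 and -0.16, and Cyp1a2 at 0.12 and -0.82.

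Between control females and control males the P450 genes differed widely. By edgeR 21 of the 43 members tested were called, 17 higher in females and 4 lower, where 18% of all genes tested were called (8.80% higher and 9.20% lower). At an unadjusted p under 0.05 there were 25 of 43, 20 higher and 5 lower, against 33.1% of all genes. DESeq2 also called 21, where it called 22.1% of genes. By subfamily the calls higher in females took in 3 of 4 Cyp2a genes, 3 of 3 Cyp2b, 6 of 13 Cyp2c, 1 of 8 Cyp2d, 3 of 5 tested Cyp3a and Cyp2g1. The 4 lower in females were Cyp2d9, Cyp2u1, Cyp2d12 and Cyp2f2. Among the calls higher in females, Cyp2c69, Cyp2g1 and Cyp3a44 had passed the count minimum through females alone. Their mean counts were 6.8, 7.6 and 0.4 in control males and 3.0, 8.33 and 0.333 in LKO males. For these genes the direction of the call was in part fixed by how members were chosen. Sex-biased expression of these genes in mouse liver is textbook knowledge, and the values serve here as the scale on which the genotype differences lie.

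Several of the female-predominant genes were close to absent in males. Cyp2c69 had 2 to 10 counts in control males and 2573 to 6942 in control females. Cyp2c40 stood at 1.21 ± 0.385 CPM (SD, n = 5) in control males and 217 ± 40.3 (n = 6) in control females, a log2 difference of 7.53 (SE 0.23, adjusted p = 3.11e-10, edgeR). Cyp2b13 stood at 0.939 ± 1.27 and 284 ± 82.3 CPM, and Cyp2b9 at 17.2 ± 13.4 and 340 ± 49.2 CPM. Both are Cyp2b enzymes whose upstream windows were 99.2% identical.

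Cyp2a4 stood at 15.6 ± 12.6 CPM in control males and 1072 ± 671 in control females, a log2 difference of 6.13 (SE 0.85), while its near-copy Cyp2a5 differed by 1.66 (SE 0.20). Cyp2a22 differed by 3.86 (SE 0.45), Cyp2b10 by 3.68 (SE 0.54), Cyp2g1 by 3.62 (SE 0.48) and Cyp2c39 by 2.61 (SE 0.40). All of these were called by edgeR. Cyp3a59, the gene that rose in LKO females, was itself higher in females, by 1.09 (SE 0.24, adjusted p = 0.00793, edgeR). Cyp1a2 was not called between the sexes, at 0.51 (SE 0.28, adjusted p = 0.233, edgeR).

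In the other direction stood Cyp2d9, a testosterone 16-alpha-hydroxylase and a classical male-predominant gene. Control males had 1317, 1253, 1255, 2427 and 1536 CPM in replicates 1, 2, 3, 4 and 6, and control females had a lowest, median and highest value of 50.5, 76.7 and 168 CPM. The log2 difference was -4.04 (SE 0.32, adjusted p = 5.83e-06, edgeR), and every male liver was above every female one. Cyp2u1, an omega-hydroxylase of long-chain fatty acids, had a log2 difference of -2.69 (SE 0.24) at 28.6 ± 6.84 and 4.31 ± 1.80 CPM. The genotype left both well apart between the sexes, at 1911 ± 126 CPM of Cyp2d9 in LKO males against 72.9 ± 18.8 in LKO females.

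**Figure D4:**
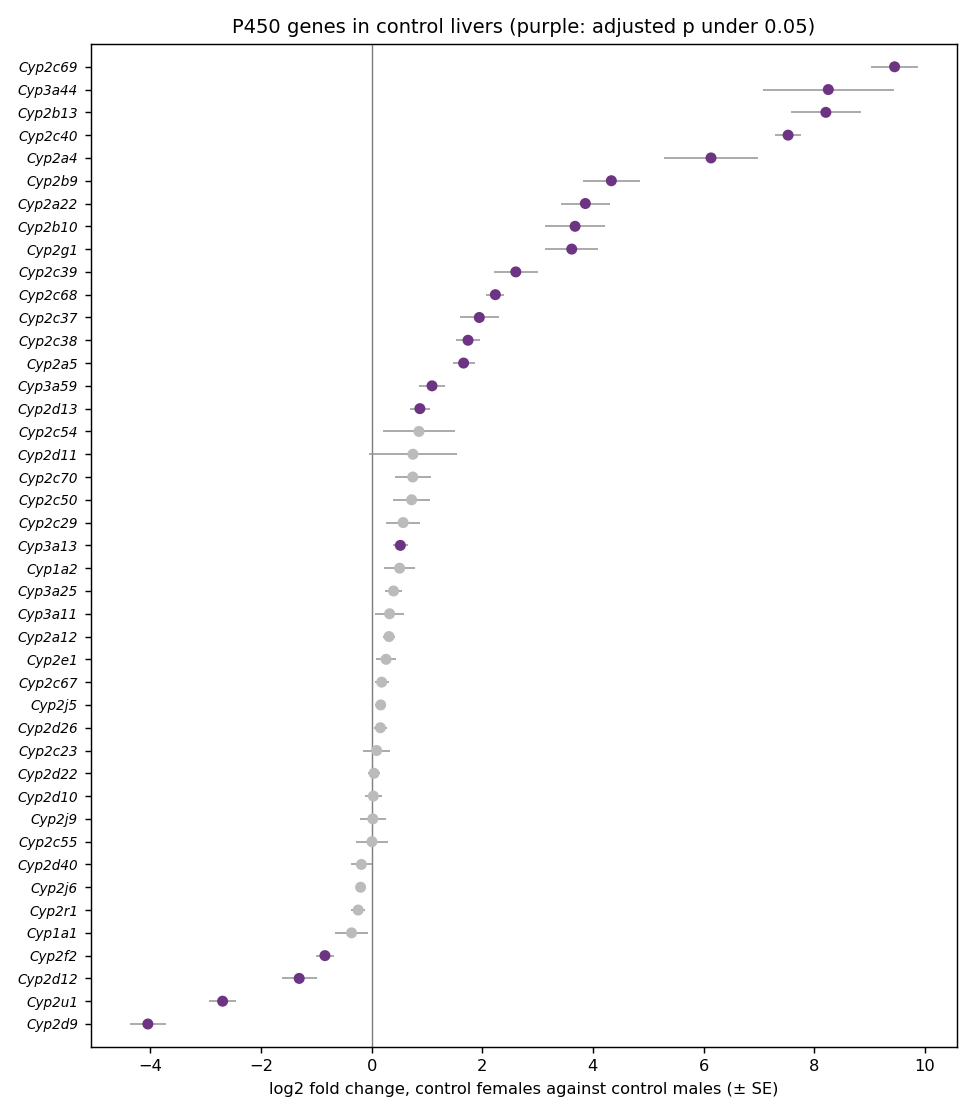
Log2 fold change of control females against control males for the 43 P450 genes tested, with SE bars and purple marking adjusted p under 0.05 (edgeR). The female-predominant genes extend to 9.45 for Cyp2c69 and the male-predominant ones to -4.04 for Cyp2d9; the value of Cyp3a44, with at most 2 counts in a male liver, depends on the prior count of the fit and is no bound.

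Genes that act with the P450 enzymes were counted from fixed lists. Among receptors and partners that induce P450 genes, 9 of 10 listed were tested and none was called in either sex by edgeR, with 0 under an unadjusted p of 0.05 in each sex. Ahr, the aryl hydrocarbon receptor, gave -0.42 (SE 0.22, adjusted p = 0.373) in females and 0.25 (SE 0.17, adjusted p = 0.572) in males. The PXR gene Nr1i2 gave 0.14 (SE 0.10) and 0.17 (SE 0.10), and the CAR gene Nr1i3 gave 0.01 (SE 0.13) and 0.33 (SE 0.24), all on the log2 scale.

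Of 6 redox partners none was called in either sex. The electron donor Por gave 0.39 (SE 0.17, adjusted p = 0.280) in females and 0.36 (SE 0.21, adjusted p = 0.504) in males, and cytochrome b5 of the outer mitochondrial membrane, Cyb5b, gave -0.33 (SE 0.10, adjusted p = 0.121) in females (edgeR). Among 12 genes of haem synthesis and breakdown and 11 hepatocyte transcription factors none was called in either sex. Alas1, whose enzyme catalyses the rate-limiting step of haem synthesis, gave 0.28 (SE 0.27) in females and 0.14 (SE 0.31) in males. The lowest p of the transcription factors in females was that of Prox1, at 0.39 (SE 0.10, adjusted p = 0.0826, edgeR), and in males that of Cebpa, at -0.28 (SE 0.09, adjusted p = 0.274).

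The regulators of sex-biased expression, 8 tested in males and 9 in females, gave no call in either sex. The lowest p in females was that of Stat5a, a transducer of the growth hormone signal, at 0.53 (SE 0.17, adjusted p = 0.132), and the growth hormone receptor Ghr gave -0.26 (SE 0.09, adjusted p = 0.157, edgeR). By unadjusted p under 0.05, the counts in females were 3 of 6 redox partners, 2 of 9 sex-biased regulators, 2 of 11 transcription factors and 1 of 12 haem genes, where 15.6% of all genes tested were under it. In males they were 2 of 6, 0 of 8, 2 of 11 and 2 of 12, where 12.5% were.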

How the data were processed

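Liver poly(A) RNA was sequenced from 23 mice. Reads were aligned with HISAT2 2.0.5 and the build was mm39, per the submitters' processing notes; the counting program and annotation are not given in the sources used here. The authors deposited 1 table for each sex with raw counts per gene, FPKM (fragments relative to gene length and library size), a normalized count signal and the log2 fold change, p-value and adjusted p-value of their own comparison. Library totals were 14224665 to 19626662 counts, and their number limits the precision for members of few counts.

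Each table was fitted whole with edgeR 4.0.16 in R 4.3.3 (filterByExpr, TMM factors, quasi-likelihood test, Benjamini-Hochberg adjustment, call at adjusted p under 0.05), and only P450 results are printed. The 4 comparisons were LKO against control in each sex, the difference of these between the sexes, and the sexes among controls. CPM use the TMM factors of a sex, so CPM of males and females were not scaled together. The log2 differences between the sexes come from fits of both sexes at once. Each edgeR SE was derived from the log2 value and its test statistic. The 95% intervals use a normal approximation with this SE and may be too narrow at these group sizes. Levels of different genes are compared only as the deposited FPKM. DESeq2 1.42.0 was an alternative; the others were other scalings, count filters, a replicate block, all 23 samples in 1 fit, a minimum log2 change of 1, and leaving out each liver. The edgeR and DESeq2 steps were tested on simulated data. P-values set a group difference against the variation between livers of a group, as modelled with all genes tested.

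Members, gene lists and tests were chosen with earlier results of these data known. Genes chosen for detail were the members called or with the 5 lowest p in a sex. Also chosen were the 5 of highest FPKM, those without overlap, and up to 12 called members of largest difference between control sexes. For some of these, such as Cyp2d26 and Cyp3a25, fitted values are printed without the CPM of each liver. Cyp3a16 and Cyp3a41a were given outside this rule. Promoters and their motifs are from RefSeq (GRCm38.p6, 40 of 47 members matched), read on both strands over 250 bases upstream. Shared sequence is the percentage of 100-base windows of a gene's longest coding transcript in GENCODE M21 that recur in another P450 transcript; the length of the reads is not given in the sources used here. Replicate numbers were not used as pairs in the main fits, and whether they mark pairs is not settled. Deviations of same-numbered livers had correlations from -0.34 to 0.40 in males and 0.007 to 0.18 in females. The same number gave the highest correlation for control replicates 1, 3 and 4 in females and 3 in males.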

Additional observations from a re-analysis of the deposited data

Results flagged for a closer look

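Among 79 groups of CPM values examined, each 1 gene in 1 group of livers, 8 held a highest or lowest liver whose gap to the next was large against the range of the group (Dixon's criterion at 95%). Chance alone gives about 1 in 20 such groups. LKO female 6 was the lowest of its group at 408 CPM of Cyp2a4, where the next liver stood at 1362, at 513 CPM of Cyp2a5, where the next stood at 1186, and at 118 CPM of Cyp2b13, where the next stood at 304. LKO female 3 was the lowest at 259 CPM of Cyp2j5, and LKO female 1 the highest at 1066 CPM of Cyp2d10. Control male 4, the shallowest library, was the highest of its group at 2427 CPM of Cyp2d9 and 40.5 CPM of Cyp2u1, both male-predominant genes. Control female 6 was the highest at 33.3 CPM of Cyp3a44, where the next stood at 9.05.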

How the results depend on the processing

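The number of members called in females, 2 with edgeR, was 7 with DESeq2, 0 with all 23 samples in 1 fit, 0 with a minimum log2 change of 1, and 0 to 3 over the 12 fits without 1 liver; in the other 5 alternatives it was within 1.5 times of 2. In males the count was 0 and became 1 with DESeq2, and it was 0 to 0 without any 1 liver. The difference between the sexes in the genotype effect gave 0 calls and 1 with DESeq2. Between control sexes 21 members were called, 13 where at least 10 counts were required in every sample, and 21 to 28 without any 1 liver; why the first alternative lowers the count follows from its construction, since genes near 0 in males are not tested. With the replicate block the counts were 2 in females, 0 in males, 0 for the difference between the sexes and 19 between control sexes, so the block ended no call in females. Values near 0 changed sign in some settings, and for these the cause was not tested. The difference between the sexes for Cyp3a59 was 0.013 with the replicate block within sex and -0.22 to 0.12 without 1 liver. Without 1 liver, Cyp1a2 in males ranged from -0.025 to 0.46, Cyp2d10 in males from -0.18 to 0.0092, Cyp2d26 in females from -0.091 to 0.0075 and Cyp2e1 in females from -0.083 to 0.062. Depth limits Cyp1a1, Cyp1b1, Cyp2d12 and Cyp2s1, which had too few counts to be tested in females.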

Other observations

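P450 entries outside the chosen genes were read as values. Cyp2d37-ps, annotated as other than protein coding, had 72.6 ± 8.95 CPM in control males (SD, n = 5), 82.4 ± 13.9 in LKO males, 76.6 ± 13.98 in control females and 72.1 ± 23.3 in LKO females (n = 6 each), with 755 to 2077 raw counts in every liver. Cyp3a41b, listed for females only and nearly identical to Cyp3a41a, ranged from 0 to 906 counts in control females and from 14 to 197 in LKO females. Cyp3a63-ps ranged from 0 to 180 counts in control females and from 3 to 18 in LKO females. In both, the control livers spanned a wider range than the LKO livers.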
